A study of Drosophila melanogaster with 32 samples.

Results

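The transcripts described here are those of the 3 yolk protein genes Yp1, Yp2 and Yp3 and of yl, the gene of the yolk receptor Yolkless, in mated Drosophila melanogaster females. Members were the probe sets whose annotated gene symbol was exactly one of these 4 names. Each gene had 1 probe set, which gave 4 of the 18769 probe sets that were not array controls, or 4 of the 11981 genes that a probe set names. The genes are CG2985 (Yp1), CG2979 (Yp2), CG11129 (Yp3) and CG1372 (yl) in the annotation. All 4 genes lie on the X chromosome. Yp2 and Yp1 are immediate neighbours there, Yp3 lies between Rtc1 and rdgB, and yl lies between CG13403 and mir-4917.

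Yolk proteins feed the embryo. In Drosophila they are made in the fat body and in the follicle cells that surround the growing oocyte, and they resemble lipases rather than the vitellogenins of vertebrates and most other insects. The fat body secretes them into the haemolymph, and the oocyte takes them up through Yolkless, a receptor of the low-density lipoprotein receptor family that is internalised in clathrin-coated vesicles. The yolk protein genes are transcribed in females under the control of the sex determination gene doublesex, and juvenile hormone and ecdysone act on yolk synthesis and uptake, whereas yl is transcribed in the germline of the ovary.

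The females came from 8 populations drawn from LHM, an outbred laboratory stock, that had been kept apart for 46 generations. In 4 of them each fly mated once per generation (monogamous, Mono1 to Mono4), and the other 4 stayed on the stock's standard mating protocol (promiscuous, Prom1 to Prom4). Females of each population were crossed to males of their own population and to males of the population with the same number from the opposite regime, and whole females were frozen 6 h after mating. The 16 crosses had 2 arrays each, 1 in each of 2 labelled batches, so that monogamous females with monogamous males (M.M), monogamous females with promiscuous males (M.P), promiscuous females with monogamous males (P.M) and promiscuous females with promiscuous males (P.P) had 8 arrays each. How many females were pooled for an array is not stated in the labels. All females were mated, and virgin females are not analysed here.

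The values are log2 expression values made by the authors with RMA, and 1 unit is a doubling of signal. With the array controls left out, array medians lay between 5.41 and 5.50, and array maxima between 14.679 and 14.805. Markers went with the label of whole females: all 17 measured eggshell and follicle cell genes, 21 of 22 germline genes and 12 of 14 fat body genes had a mean of at least 6 log2 units, against 1 of 18 genes of the male accessory gland and testis. Of all 18769 probe sets, 8668 had such a mean. In whole bodies, fewer cells of a type and less RNA per cell cannot be told apart.

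The 3 yolk protein probe sets sat at the top of the arrays' scale in every female, whichever regime she or her mate came from. With the array controls left out, Yp1 had the highest value of any probe set on 19 of 32 arrays, and at most 2 probe sets were above it on the others. Its mean was 14.73 ± 0.028 log2 units (SD, n = 32 arrays). Yp2 averaged 14.54 ± 0.082, with 2 to 9 probe sets above it on an array, and Yp3 averaged 14.48 ± 0.05, with 3 to 12 above it. The receptor gene yl averaged 11.22 ± 0.097, with 686 to 900 probe sets above it. These ranks show where on the scale each probe set was read and not which transcript was more abundant, because probe sets differ in how brightly they bind.

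The spread of the yolk proteins over the 32 arrays was small, as it was for other probe sets near the top. Only 0.0959% of probe sets had a smaller SD than Yp1, against 8.722% for Yp2, 0.7566% for Yp3 and 16.59% for yl. The median SD was 0.131 log2 units over all probe sets but 0.032 over the 62 whose mean was at least 14. Within those 62, Yp1 was less variable than most, with 27.42% of them below its SD, while 95.16% had a smaller SD than Yp2 and 83.87% a smaller SD than Yp3. The differences of the yolk proteins were read on this stretch of the scale, and whether signals there were saturated was not tested.

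**Figure D1:**
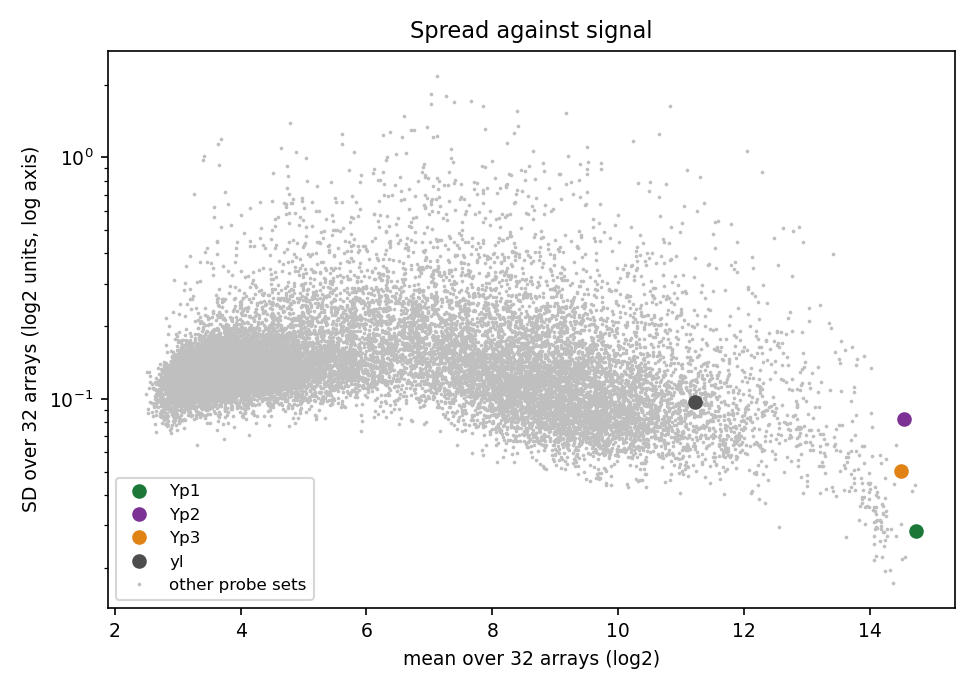
SD over 32 arrays (log2 units, log axis) against mean over 32 arrays (log2) for 18769 probe sets, with Yp1, Yp2, Yp3 and yl in colour and all other probe sets as grey points. Yp1, Yp2 and Yp3 lie at the right edge with means of 14.73, 14.54 and 14.48, where spreads are small, and yl lies inside the cloud at 11.22.

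Whether the evolved mating regime of the females went with the level of yolk transcripts was asked over populations, 4 monogamous against 4 promiscuous, each the mean of its 4 arrays. None of the 4 genes passed the threshold of 0.05 in limma after Benjamini-Hochberg adjustment over all probe sets. No other probe set did either (0.0% called), although 1312, or 6.99%, had an unadjusted p under 0.05. The 3 yolk proteins had lower means in monogamous females and yl a higher one. Over all probe sets, 52.9% were lower in monogamous females, and of the 62 with a mean of at least 14 the share was 53.2%.

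Yp2 showed the widest gap of the 4. Its arrays ran from 14.384 to 14.664 with a median of 14.480 in monogamous females, against 14.547 to 14.665 with a median of 14.600 in promiscuous females (16 arrays each). The population means were 14.58, 14.513, 14.401 and 14.464 in Mono1 to Mono4, against 14.638, 14.573, 14.614 and 14.559 in Prom1 to Prom4. Mono2, Mono3 and Mono4 were below every promiscuous population, and Mono1 lay among them. Yp2 averaged 14.49 ± 0.0754 in monogamous populations and 14.596 ± 0.0368 in promiscuous populations (SD, n = 4 each). The difference of -0.107 ± 0.043 log2 units (SE) corresponds to a change of -7.12%, with a 95% confidence interval from -13.24 to -0.56% before adjustment. The limma p was 0.0369 unadjusted and 0.687 adjusted, and the two-sided exact permutation p was 0.08571. Among the 62 brightest probe sets Yp2 was the 1 (1.61%) with an unadjusted p under 0.05.

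The gap of Yp2 had nearly the same size in each batch. It was -0.108 in batch 2 (exact permutation p = 0.02857) and -0.105 in batch 1 (exact p = 0.1714), and no value of 4 against 4 can go below 0.02857. Its size depended on which population was left out, from -0.136 without Mono1 to -0.077 without Mono3, and Mono3 was the population with the lowest Yp2.

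Yp3 was the member whose populations separated by regime. Its population means were 14.485, 14.489, 14.444 and 14.443 in Mono1 to Mono4, against 14.518, 14.503, 14.505 and 14.493 in Prom1 to Prom4. All 4 monogamous means were below all 4 promiscuous means, but the closest pair, Mono2 and Prom4, differed by less than the spread of either population's arrays. Such a complete separation in this direction was seen in 465 of all probe sets (2.48%), and the opposite one in 300 (1.60%). The single arrays overlapped, from 14.337 to 14.542 with a median of 14.462 in monogamous females and from 14.453 to 14.584 with a median of 14.504 in promiscuous females. The difference was -0.039 ± 0.028 log2 units (SE), with an interval from -0.104 to 0.025. The limma adjusted p was 0.844, while the exact permutation p was 0.02857, the smallest this design allows, and is not adjusted for the 4 genes tested. It was not kept under other settings: the exact p was 0.05714 in batch 2, with a difference of -0.065, 0.5714 in batch 1, with a difference of -0.013, and 0.20 after cyclic loess normalization, where the difference kept its size at -0.039.

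Yp1 varied least. Its arrays lay between 14.679 and 14.763 in monogamous females and between 14.723 and 14.795 in promiscuous females. Its population means were 14.704, 14.754, 14.702 and 14.715 in Mono1 to Mono4, against 14.743, 14.742, 14.767 and 14.752 in Prom1 to Prom4. Mono1, Mono3 and Mono4 were below all promiscuous populations, and Mono2 was the second highest of the 8. The difference was -0.033 ± 0.028 log2 units (SE), with an interval from -0.097 to 0.032, a limma adjusted p of 0.874 and an exact permutation p of 0.1143. The interval allows a change in monogamous females from -6.48 to 2.22%.

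The receptor gene ran the other way, without separation. The arrays of yl lay between 11.0005 and 11.376 with a median of 11.258 in monogamous females, and between 11.016 and 11.326 with a median of 11.208 in promiscuous females. The population means were 11.307, 11.185, 11.221 and 11.268 in Mono1 to Mono4, against 11.238, 11.179, 11.222 and 11.15 in Prom1 to Prom4. Mono1 and Mono4 were above all promiscuous populations, and Mono2 and Mono3 lay among them. The difference was 0.048 ± 0.038 log2 units (SE), with an interval from -0.038 to 0.134, a limma adjusted p of 0.859 and an exact permutation p of 0.2286. It took opposite signs in the batches, at -0.023 in batch 2 (exact p = 0.4571) and 0.118 in batch 1 (exact p = 0.05714).

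**Figure D2:**
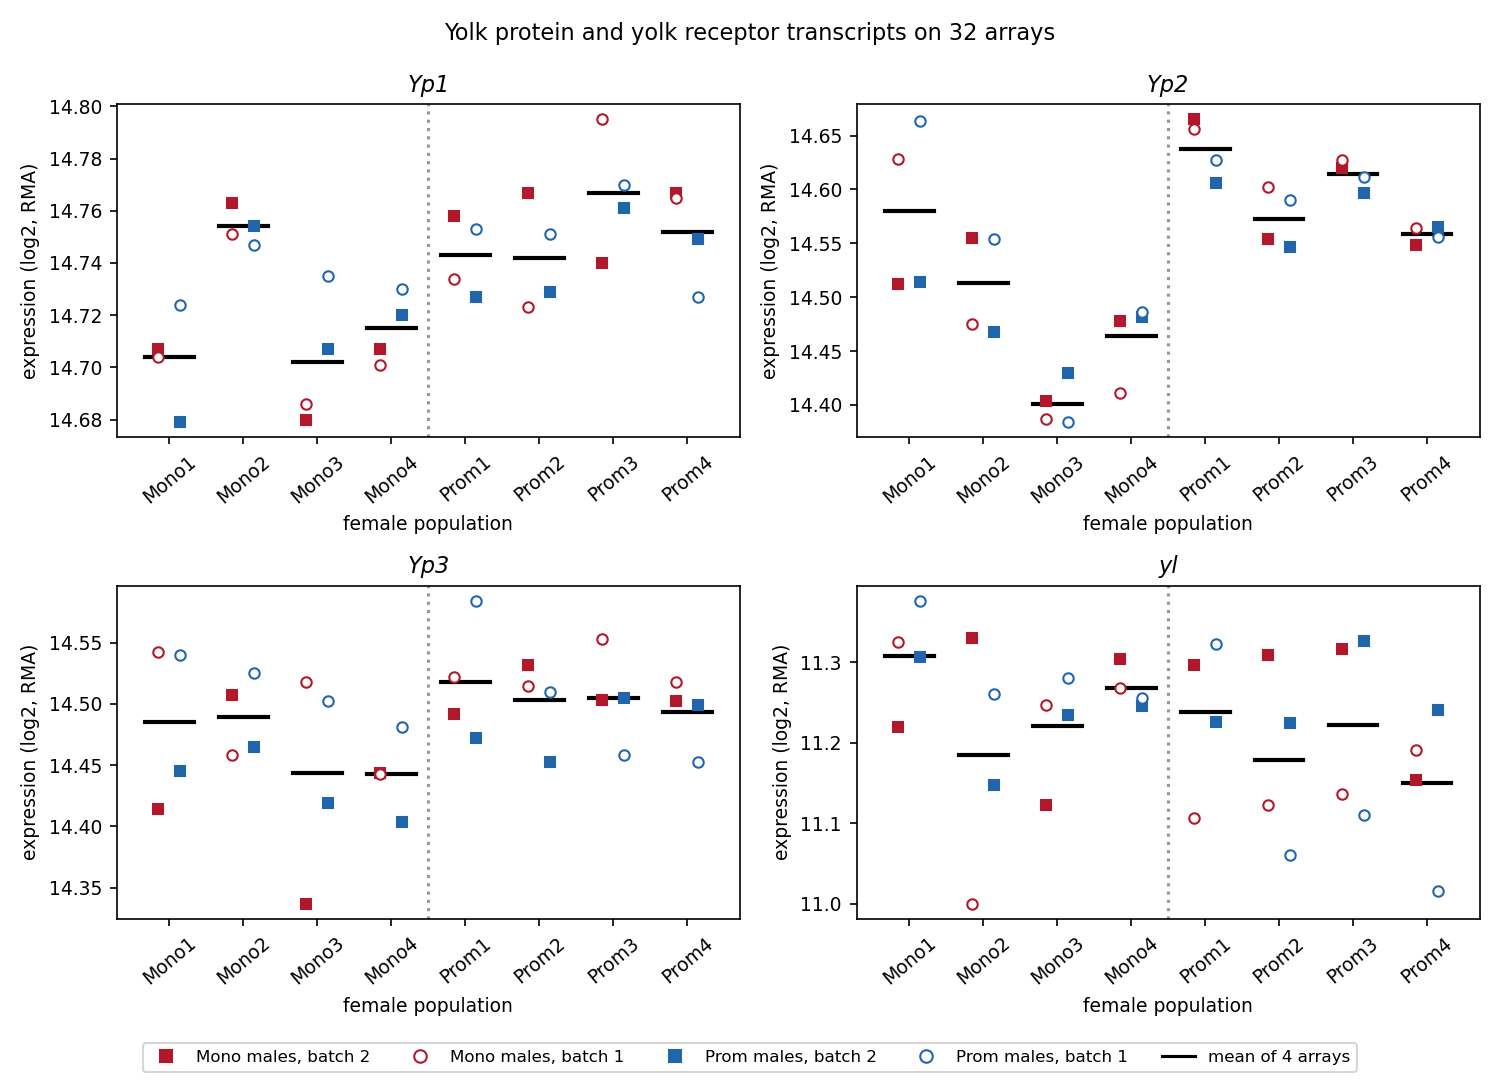
Expression (log2, RMA) of Yp1, Yp2, Yp3 and yl on all 32 arrays by female population, with monogamous populations left of promiscuous ones. Filled squares are batch 2, open circles batch 1, colour gives the males' regime, and a bar is the mean of the 4 arrays of a population. The means of Yp3 are lower in Mono1 to Mono4 than in Prom1 to Prom4, those of Yp2 are lowest in Mono3 at 14.401, and in promiscuous females yl is higher in batch 2 in 6 of 8 crosses.

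The regime of the mate left no difference that these arrays could detect. Yp1 averaged 14.734 log2 units with monogamous males and 14.735 with promiscuous males, over females of all 8 populations. For Yp2 both means were 14.543. Yp3 averaged 14.488 with monogamous males and 14.482 with promiscuous males, and yl averaged 11.215 with monogamous males and 11.227 with promiscuous males. In the limma fit to the 16 cross means with female population as a block, the male differences were -0.001 ± 0.022, 0.000 ± 0.022, 0.005 ± 0.023 and -0.011 ± 0.027 log2 units (SE) in the order Yp1, Yp2, Yp3 and yl. The adjusted p values were 0.991, 0.998, 0.946 and 0.900.

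The 95% confidence intervals allow a male difference in Yp1 from -3.45 to 3.44%, in Yp2 from -3.39 to 3.54%, in Yp3 from -3.09 to 3.97% and in yl from -4.80 to 3.39%. Exact sign-flip permutation tests over the 8 female populations gave p = 0.9297 for Yp1, 0.9766 for Yp2, 0.6172 for Yp3 and 0.6328 for yl. The males came from 4 pairs of populations, each pair met by 2 female populations. Over those 4 pairs, where no p below 0.125 is possible, the exact p was 1.0, 1.0, 0.625 and 0.75 in the same order. No probe set was called for the males' regime (0.0%), while 1977, or 10.5%, had an unadjusted p under 0.05, and 48.7% of all probe sets were lower with monogamous males. In batch 2 alone the male differences were 0.008, 0.016, 0.009 and 0.013, and in batch 1 alone -0.010, -0.015, 0.002 and -0.036, in the order Yp1, Yp2, Yp3 and yl, so that only Yp3 kept its sign.

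The male difference was also read within each regime of females. In monogamous females it was -0.012 for Yp1, -0.017 for Yp2, -0.015 for Yp3 and -0.036 log2 units for yl. Promiscuous females gave 0.010 for Yp1, 0.017 for Yp2, 0.025 for Yp3 and 0.013 for yl. In both kinds of females, the mean of each of the 4 genes was thus lower after a cross within the own population than after a cross to the opposite regime. The 4 values are not independent, because they come from the same arrays. Single populations did not all follow: Yp1 was higher with monogamous males in 2 of 4 monogamous and 4 of 4 promiscuous populations, and Yp2, Yp3 and yl each in 1 of 4 monogamous and 3 of 4 promiscuous populations. After cyclic loess normalization, the difference in promiscuous females was -0.023 for Yp1, -0.013 for Yp2, -0.004 for Yp3 and 0.021 for yl. The 3 yolk proteins thus did not keep the pattern under that setting.

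The test of that contrast, the male difference in monogamous females minus that in promiscuous females, gave -0.023 ± 0.045 for Yp1, -0.034 ± 0.045 for Yp2, -0.040 ± 0.046 for Yp3 and -0.049 ± 0.054 log2 units for yl (SE). The limma adjusted p was 0.930, 0.883, 0.855 and 0.847. No probe set was called for this interaction or for the male difference within monogamous or within promiscuous females (0.0% each), with 1367, 1608 and 1766 at an unadjusted p under 0.05. In this design a mate of the own regime was also a mate of the own population, so the 2 cannot be told apart.

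The level of Yp2 in the 4 groups shows the sizes involved. It averaged 14.4813 ± 0.0827 in M.M, 14.4978 ± 0.0844 in M.P, 14.6046 ± 0.0453 in P.M and 14.5875 ± 0.0286 in P.P (SD over 8 arrays each). Arrays of M.M ran from 14.387 over a median of 14.476 to 14.628, and those of M.P from 14.384 over 14.484 to 14.664. Arrays of P.M ran from 14.548 over 14.611 to 14.665, and those of P.P from 14.547 over 14.594 to 14.627. The medians of both groups of monogamous females were below the lowest array of either group of promiscuous females, while single arrays overlapped through 2 arrays of Mono1 and 2 of Mono2. For yl the 4 groups were closer than their spread, with 11.227 ± 0.114 in M.M, 11.2629 ± 0.0648 in M.P, 11.2039 ± 0.0894 in P.M and 11.1908 ± 0.116 in P.P.

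**Figure D3:**
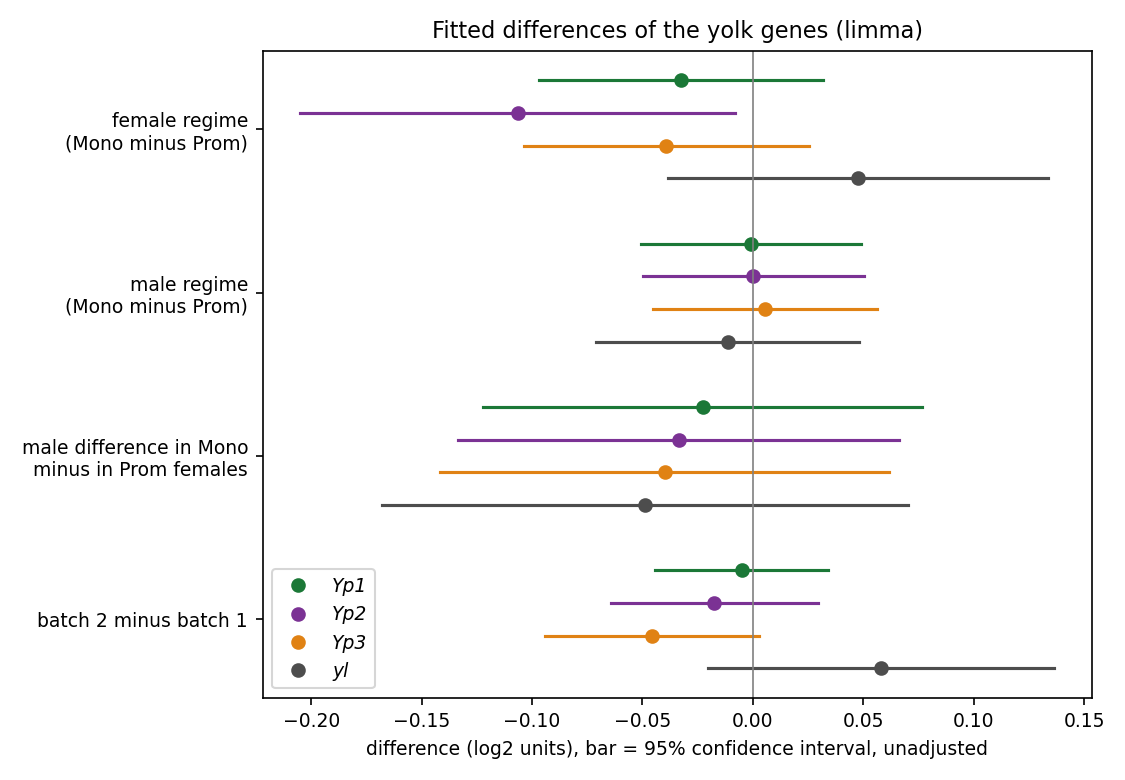
Fitted differences (log2 units) of Yp1, Yp2, Yp3 and yl for the females' regime, the males' regime, their interaction and the batch, each point with its unadjusted 95% confidence interval from limma. Monogamous minus promiscuous, and batch 2 minus batch 1. The interval of Yp2 for the females' regime, from -0.205 to -0.008, is the only 1 of the 16 that leaves out 0, and no difference passed the adjusted threshold.

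Populations of the same regime were compared to see how far replicate populations had come to differ. The test set them against the spread between the 2 arrays of a cross. Yp2 ranged over 0.178 log2 units among monogamous populations (1.13-fold), highest in Mono1 and lowest in Mono3, with a limma p of 0.00583 and an adjusted p of 0.0535. It ranged over 0.080 units among promiscuous populations (adjusted p = 0.609). Whether the populations differed more under monogamy was not tested. The value for monogamous populations lay next to the threshold and crossed it with 3 other settings and with Mono2 left out, while it was far from it without Mono1 (adjusted p = 0.242) or without Mono3 (adjusted p = 0.276). For comparison, 2002 of all probe sets passed among monogamous populations (10.7%) and 1440 among promiscuous ones (7.67%), and 4392 (23.4%) had an unadjusted p under 0.05 among monogamous ones.

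The other members did not pass in either regime. Among monogamous populations Yp1 ranged over 0.051, Yp3 over 0.046 and yl over 0.122 log2 units, with adjusted p values of 0.704, 0.788 and 0.640. Promiscuous populations spanned 0.024 units in Yp1, 0.025 in Yp3 and 0.087 in yl, with adjusted p values of 0.965, 0.985 and 0.852. Ordered from high to low over all 8 populations, Yp1 ran from Prom3 to Mono3 over 0.065 units (1.046-fold) and Yp3 from Prom1 to Mono4 over 0.075 units (1.053-fold). Yp2 ran from Prom1 to Mono3 over 0.237 units (1.179-fold), and yl from Mono1 to Prom4 over 0.156 units (1.115-fold). In each gene the arrays of all 7 neighbouring pairs of populations overlapped, so neighbours in these orders were not separated. The gap between neighbours exceeded the larger of their SDs in 1 pair for Yp1, 2 pairs for Yp2 and none for Yp3 and yl.

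The batch is named only by number in the labels, and every cross had 1 array in each. In the 3'-end probe sets of the control transcripts, signal exceeded that of the 5'-end probe sets by more in batch 2 than in batch 1. The excess was larger by 1.00 ± 0.21 log2 units in actin, by 0.40 ± 0.13 in GAPDH and by 0.93 ± 0.18 in eIF-4a (SD, n = 16 crosses), with all 16 crosses of one direction. In monogamous minus promiscuous females the excess differed by 0.063, 0.035 and 0.086 units in the same order (exact permutation p = 0.4571, 0.2286 and 0.3143). Its part in the batch values below was not tested. None of the 4 genes passed for batch in limma, where 3717 probe sets (19.8%) did and 6168 (32.9%) had an unadjusted p under 0.05.

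Yp3 was lower in batch 2 in 11 of 16 crosses. It averaged 14.462 ± 0.0505 in batch 2 and 14.5077 ± 0.0397 in batch 1 (SD, n = 16 arrays each). The difference was -0.046 ± 0.023 log2 units (SE), with an adjusted p of 0.176 and an exact sign-flip permutation p of 0.01587 over the crosses. After cyclic loess normalization the difference was -0.008 units. Yp1 and Yp2 differed between batches by -0.005 ± 0.019 and -0.017 ± 0.022 units (SE), with adjusted p values of 0.883 and 0.636.

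The receptor gene yl had the most uneven batch values. In monogamous females it was higher in batch 2 in 2 of 8 crosses, and in promiscuous females in 6 of 8. The mean batch difference was -0.013 ± 0.149 log2 units in monogamous females and 0.129 ± 0.123 in promiscuous females (SD over 8 crosses). The arrays of monogamous females had medians of 11.239 in batch 2 and 11.264 in batch 1. Those of promiscuous females lay between 11.154 and 11.326 with a median of 11.268 in batch 2, and between 11.016 and 11.322 with a median of 11.116 in batch 1. Over all crosses yl was 0.058 ± 0.038 units higher in batch 2 (SE, adjusted p = 0.302, exact permutation p = 0.1442). After these values were seen, the batch difference was compared between the regimes: it was -0.141 ± 0.066 units in monogamous minus promiscuous females (SE, limma p = 0.0556, adjusted p = 0.636, exact permutation p = 0.08571). No probe set passed that comparison (0.0%), and 1479 had an unadjusted p under 0.05. The 3'-end excess of actin was larger in batch 2 by 1.02 units in monogamous and 0.98 in promiscuous females, that of GAPDH by 0.41 and 0.39, and that of eIF-4a by 0.94 and 0.93.

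**Figure D4:**
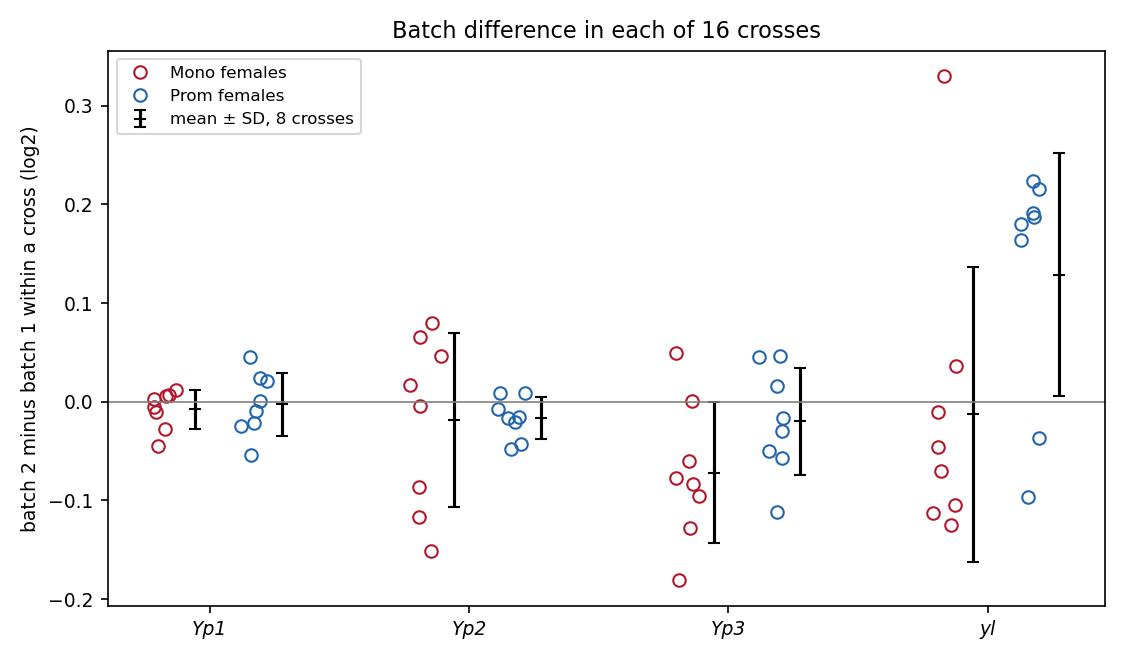
Difference of batch 2 minus batch 1 within each of the 16 crosses (log2 units) for Yp1, Yp2, Yp3 and yl, with monogamous females left of promiscuous females for each gene and the mean ± SD of 8 crosses as a black bar. For yl, 2 of 8 crosses of monogamous females are above 0, against 6 of 8 of promiscuous females, and for Yp3, 11 of 16 crosses are below 0.

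How far the members varied together was read from the 8 population means, for 6 pairs of genes. The means share the arrays and their normalization. Yp2 and Yp3 went together most closely, with Pearson's r = 0.931 (exact permutation p = 0.00117, adjusted over the pairs 0.00699) and Spearman's rho = 0.833 (exact permutation p = 0.0154, adjusted 0.0923). Without Mono3 and Mono4, the populations farthest from the median of Yp2, r was 0.789. It was 0.828 within batch 2, 0.615 within batch 1 and 0.933 after cyclic loess. Both genes had lower means in monogamous populations, so this r also holds the gap between regimes. With the mean of each regime subtracted, a step added after the data were seen, r was 0.851 over the 8 populations, and the exact permutation p within regimes was 0.0312 (adjusted 0.188), so the pair no longer passed.

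No other pair passed after adjustment. Yp1 and Yp3 had r = 0.722 (exact permutation p = 0.0489, adjusted 0.147) and rho = 0.643, and r without Mono1 and Mono3 was 0.740. Their r was 0.930 in batch 2 but -0.00842 in batch 1. The neighbouring genes Yp1 and Yp2 had r = 0.593 (exact permutation p = 0.123, adjusted 0.184) and rho = 0.429, with 0.665 in batch 2 and 0.487 in batch 1 alone. The receptor gene had r = -0.648 with Yp1, -0.00368 with Yp2 and -0.288 with Yp3 (adjusted p = 0.175, 0.993 and 0.585 by exact permutation). In batch 2 alone these values were 0.212, 0.569 and 0.421, and in batch 1 alone -0.727, -0.153 and 0.303. With the regime means subtracted they were -0.477, 0.599 and 0.170 (adjusted p = 0.715, 0.568 and 0.748 by exact permutation within regimes). The values with Yp2 and Yp3 were then above 0, but none passed before or after, so no change of sign is read from them. Yp1 then had r = 0.171 with Yp2 and 0.401 with Yp3 (adjusted exact p = 0.748 each). After the means of each cross and batch were removed, the residuals of Yp3 and yl correlated at 0.81, against 0.199 to 0.456 for the other pairs. The 2 residuals of a cross mirror each other, so these values rest on 16 differences and not on 32 arrays. The value of 0.81 describes how the 2 arrays of a cross differed and compares no populations.

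**Figure D5:**
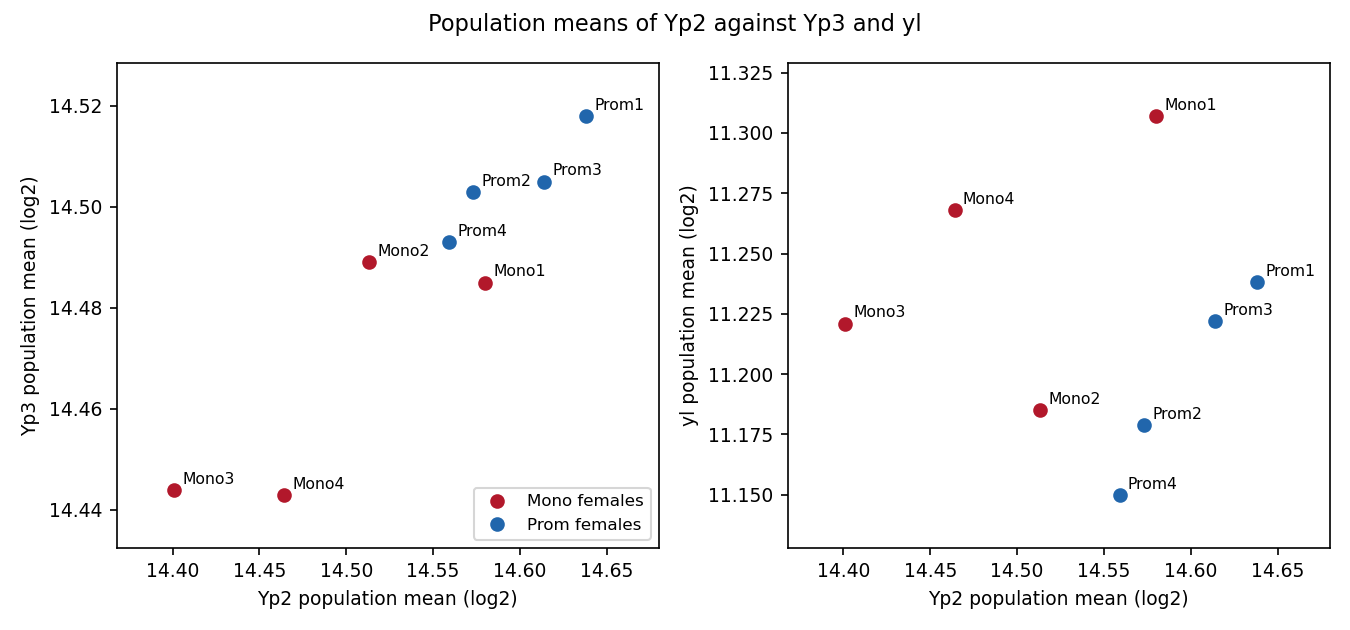
Population means (log2) of Yp3 against Yp2 (left) and of yl against Yp2 (right), 1 point for each of the 8 female populations. Yp2 and Yp3 are lowest in Mono3 and Mono4 and highest in Prom1, while yl follows no such order.

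Genes whose cross means ran most like those of a member were ranked among 11977 genes by Pearson's r over the 16 cross means, which share normalization and population. The closest to Yp1 were Alp9 (0.863), Lcch3 (0.816) and atk (0.815). For Yp2 they were CG6231 (0.901), CG6870 (0.892) and CG30338 (0.886), and Yp3 itself stood at 0.810. Yp3 was closest to Nepl13 (0.894), ogre (0.885) and CG15673 (0.885). The closest to yl were CG10553 (0.829), CG32625 (0.806) and Pgm1 (0.799), and no yolk protein correlated with yl above -0.018. None of these 12 genes is in the lists of yolk-related genes described next.

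Genes around the yolk pathway were grouped in 8 lists, and in none did a gene pass for the females' regime, the males' regime or their interaction. Counts and medians are set here beside the median difference of all probe sets, -0.0041 log2 units for the females' regime and 0.0016 for the males' regime. Of the genes of sex determination and of factors that act on yolk gene transcription, 14 of 15 were measured, 7 were higher and 7 lower in monogamous females, and their median difference was 0.011. The GATA factor gene GATAe differed by -0.16 (adjusted p = 0.801), the splicing regulator gene tra by -0.06 (adjusted p = 0.806) and slbo, which encodes a C/EBP factor of follicle cells, by 0.08 (adjusted p = 0.813).

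Of the juvenile hormone and ecdysone genes, 23 of 28 were measured, with 13 higher and 10 lower in monogamous females, a median difference of 0.005 and a mean difference of -0.031. The nuclear receptor gene ftz-f1 differed by 0.21 ± 0.06 (SE, adjusted p = 0.604), the receptor gene Hr3 by 0.16 ± 0.07 (adjusted p = 0.689), and jhamt, which encodes a methyltransferase of juvenile hormone synthesis, by -0.42 ± 0.14 log2 units (adjusted p = 0.623). In this list, 4 genes had an unadjusted p under 0.05 for the females' regime, against 6.99% of all probe sets. Populations of a regime differed in 3 of the 23 among monogamous and 4 among promiscuous populations, against 10.7% and 7.67% of all probe sets. Of the 23, 13 had a mean of at least 6 log2 units. Of the 8668 such probe sets, tested alone, 2100 and 1451 passed. The genes that differed included Jhe, the juvenile hormone esterase (ranges 0.83 and 0.62, adjusted p = 0.0029 and 0.019). Another was Kr-h1, a transcription factor gene induced by juvenile hormone (0.68 and 1.16, adjusted p = 0.021 and 0.0017).

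Of the genes that move or sort the receptor after it is made, clathrin, adaptor, exocyst and vesicle-fusion genes among them, 20 of 24 were measured. In monogamous females 14 were higher and 6 lower, with a median of 0.016 and none at an unadjusted p under 0.05. The dynamin gene shi differed by 0.07 ± 0.03 (SE, adjusted p = 0.712), the clathrin heavy chain gene Chc by 0.04 ± 0.03 (adjusted p = 0.828) and AP-2sigma by 0.04 ± 0.03 log2 units (adjusted p = 0.871). For batch, 8 of the 20 passed, against 19.8% of all probe sets. All 20 had a mean of at least 6 log2 units, and 3112 of the 8668 such probe sets passed when tested alone. Of the 8 genes, 7 were higher in batch 2 and 1 was lower. Among them the vesicle-fusion genes dor and car rose by 0.20 and 0.17 units in batch 2 (adjusted p = 0.0010 and 0.011), shi rose by 0.11 (adjusted p = 0.015), and Rbsn-5 fell by 0.08 (adjusted p = 0.036).

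Of the other lipoprotein and LDL receptor family genes, 8 of 11 were measured, 4 higher and 4 lower in monogamous females, with a median of -0.002. The lipid transfer particle gene Apoltp differed by -0.23 ± 0.08 (SE, adjusted p = 0.623), cv-d by -0.13 ± 0.05 (adjusted p = 0.645) and the lipophorin receptor gene LpR2 by 0.27 ± 0.11 log2 units (adjusted p = 0.689). LpR2 differed among monogamous populations (range 0.54, adjusted p = 0.035), and LpR1 among promiscuous ones (range 0.24, adjusted p = 0.039). Each was 1 gene of 8, against 10.7% and 7.67% of all probe sets. All 8 had a mean of at least 6 log2 units. Of the 8668 such probe sets, tested alone, 2100 and 1451 passed.

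Markers of the tissues that make yolk proteins and the receptor were read in the same way. Of the eggshell and follicle cell genes, 17 of 23 were measured, 6 higher and 11 lower in monogamous females, with a median difference of -0.042. The vitelline membrane genes Vm32E and Vm26Ac differed by -0.44 ± 0.10 and -0.42 ± 0.17 (SE, adjusted p = 0.578 and 0.675) and ndl, a protease gene of the follicle cells, by -0.17 ± 0.08 log2 units (adjusted p = 0.721). The mean level over the 17 genes lay between 10.24 and 11.08 in monogamous populations and between 10.57 and 10.90 in promiscuous populations. The chorion gene Cp7Fc was the 1 gene of the list that differed among monogamous populations, over 2.12 units (adjusted p = 0.0040), and none differed among promiscuous ones. Of all probe sets, 10.7% and 7.67% did. All 17 genes had a mean of at least 6 log2 units. Of the 8668 such probe sets, tested alone, 2100 and 1451 passed. The ranges of the 17 genes were wide although only Cp7Fc passed. Their median range was 0.809 units among monogamous populations, against 0.1516 over all probe sets. Among promiscuous populations it was 0.425, against 0.1384. Yp1, Yp2 and Yp3 are also made in follicle cells, and the part of these cells' transcripts in the yolk protein values was not tested.

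Of the fat body markers, 14 of 19 were measured, 6 higher and 8 lower in monogamous females, with a median difference of -0.006 and a mean difference of 0.002. Their mean level lay between 10.56 and 10.75 in monogamous populations and between 10.58 and 10.69 in promiscuous populations. The desaturase gene Desat1 differed by 0.19 ± 0.04 (SE, adjusted p = 0.578), Apoltp, which is in this list too, by -0.23, and the fatty acid synthase gene FASN1 by 0.16 ± 0.07 log2 units (adjusted p = 0.712). Populations differed in 5 of the 14 markers under each regime, against 10.7% of all probe sets among monogamous and 7.67% among promiscuous populations. Of the 14 markers, 12 had a mean of at least 6 log2 units. Of the 8668 such probe sets, tested alone, 2100 passed among monogamous and 1451 among promiscuous populations. The storage protein gene Lsp2 ranged over 1.20 units among monogamous and 1.13 among promiscuous populations (adjusted p = 0.000323 and 0.0012), and Pepck1, a gluconeogenic enzyme gene, over 1.01 and 0.39 (adjusted p = 1.16e-06 and 0.025).

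Of the germline and oocyte genes, 22 of 24 were measured. In monogamous females 17 were higher and 5 lower, with a median of 0.062. An unadjusted p under 0.05 was found for 4 of the 22, against 6.99% of all probe sets. CycE, the cyclin of S phase entry, differed by 0.18 ± 0.05 (SE, adjusted p = 0.581), the germline small RNA gene piwi by 0.26 ± 0.08 (adjusted p = 0.614) and the meiotic phosphatase gene twe by 0.20 ± 0.07 log2 units (adjusted p = 0.623). The mean level over the 22 genes lay between 9.82 and 9.95 in monogamous populations and between 9.81 and 9.83 in promiscuous populations. Among monogamous populations, 3 germline genes differed (bam over 0.69, shu over 0.34 and aub over 0.28 units), and 1 among promiscuous ones (aub over 0.21). Of all probe sets, 10.7% differed among monogamous and 7.67% among promiscuous populations. Of the 22 genes, 21 had a mean of at least 6 log2 units. Of the 8668 such probe sets, tested alone, 2100 passed among monogamous and 1451 among promiscuous populations.

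The male accessory gland and testis genes, 18 of 19 measured, were 8 higher and 10 lower in monogamous females, with a median of -0.021. Their mean level lay between 3.67 and 3.73 in monogamous and between 3.68 and 3.71 log2 units in promiscuous populations. These levels are near the lower end of the scale, where the lowest value of any probe set other than the array controls was 2.27.

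For the males' regime, most lists leaned one way although no gene of them passed, while 48.7% of all probe sets were lower with monogamous males. Lower with monogamous males were 21 of the 22 germline and oocyte genes (median difference -0.054), 19 of the 23 juvenile hormone and ecdysone genes (-0.047) and 17 of the 20 trafficking genes (-0.020). The same held for 12 of the 14 sex determination and yolk transcription genes (-0.031) and 7 of the 8 lipoprotein and LDL receptor family genes (-0.020). Of the 17 eggshell and follicle cell genes, 11 were lower (-0.024), but their mean difference was 0.019, with the opposite sign. The fat body markers split into 7 lower and 7 higher (-0.002), and 16 of the 18 male accessory gland and testis genes were higher (0.033). Genes of a list are read from the same arrays and do not vary independently. The lists also differed in signal: 21 of 22 germline, 20 of 20 trafficking and 12 of 14 fat body genes had a mean of at least 6 log2 units. Of the male accessory gland and testis genes, 1 of 18 did. Whether the leaning of a list went with its signal level was not tested. The yolk receptor gene yl, which is transcribed in the germline, had a difference of -0.011 between the males.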

How the data were processed

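Transcripts of whole mated females were measured on 32 Affymetrix arrays, from Trizol extracts cleaned with RNeasy and biotin-labelled, per the labels' protocols. The deposited table holds 1 log2 value for each array and probe set. The submitters' processing notes list RMA and affy, with no version of either. RMA sets all arrays to a shared distribution, so a change common to most transcripts would not be seen. No label says whether this was done on all arrays together. The number of populations, 4 of each regime, limits the precision of the regime comparisons. A call of presence for each probe set was not used here.

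Of 18952 probe sets, 183 array controls were left out of the tests. Gene names came from the platform annotation, in which 13646 of the remaining probe sets carried 1 symbol, 402 several and 4721 none, and the chromosome and the neighbours from the RefSeq gene table of Release 6 plus ISO1 MT. Each yolk gene had 1 probe set, and for other genes the probe set of highest mean was used.

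Models were fitted with limma 3.58.1 (R 4.3.3), and variances were moderated by empirical Bayes. Tests were two-sided, p-values were adjusted by Benjamini-Hochberg over 18769 probe sets, and the threshold was 0.05. The females' regime was tested on the 8 population means, since populations and not arrays are its replicates. The males' regime and the interaction were tested on the 16 cross means with female population as a block (6 residual degrees of freedom), which takes the 8 male differences as independent although they rest on 4 pairs of male populations. Differences among populations (a moderated F test) and between batches were tested on the 32 arrays with crosses and batch as terms (15 residual degrees of freedom). Single genes were also tested by exact permutation over populations. Labels do not say whether the 2 arrays of a cross came from separate cultures, so the tests on 32 arrays measure a spread that may be technical.

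The members and the 8 gene lists were chosen with earlier results of these data known. From each list, the text names the 3 genes with the lowest unadjusted p for the females' regime and examples among genes that passed any test. For each yolk gene it names the 3 genes with the highest Pearson's r over cross means. Alternatives were cyclic loess, a minimum mean of 6 log2 units, an intensity trend in the variance, single batches, single male regimes, a replicate block and each population left out. A comparison of the batch difference between the regimes, exact tests within batches and after loess, and correlations with the regime means subtracted were added after the data were seen.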

Additional observations from a re-analysis of the deposited data

Results flagged for a closer look

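One array stood apart from the rest of its group. Among the 8 arrays of promiscuous females with promiscuous males, the batch 1 array of Prom1 had the highest Yp3 value, 14.584 log2 units, and its distance to the next array was 0.563 of the whole range of the group. The median of those arrays was 14.485. The same array was not set apart for Yp1, Yp2 or yl. Among the 24 such comparisons that were made, chance alone sets an array apart in about 1 of 20 groups.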

How the results depend on the processing

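No yolk gene passed for the females' regime, the males' regime, their interaction or the batch under any alternative that was run. For the females' regime, 1 of 68 alternative values of the 4 genes changed sign, which was yl in batch 2 (-0.023). Yp2 lay between -0.136 and -0.077 log2 units with adjusted p from 0.0646 to 0.908, Yp1 between -0.044 and -0.021, and Yp3 between -0.065 and -0.013. The lowest p of Yp2 came from a fit to 32 arrays with female population as a random block, in which 145 probe sets passed, against 0 on population means. Sign changes among values that did not pass numbered 6 of 56 for the males' regime, 1 of 52 for the interaction, 2 of 52 and 4 of 52 for the males within monogamous and promiscuous females, and 2 of 12 for the batch (Yp1 at 0.037 and Yp2 at 0.022 after cyclic loess). With an intensity trend, 1 probe set passed for the interaction and 1 for the males within promiscuous females. Among monogamous populations, Yp2 passed after cyclic loess (range 0.212, adjusted p = 0.0139), among probe sets with a mean of at least 6 (0.178, 0.0104), with an intensity trend (0.178, 0.00221) and without Mono2 (0.178, 0.0474), but not without Mono1 (0.112, 0.242), without Mono3 (0.115, 0.276), without Mono4 (0.178, 0.0561) or in crosses within a population alone (0.175, 0.561). Crosses within a population alone, with fewer arrays, gave 517 probe sets that differed among monogamous and 318 among promiscuous populations. Leaving out 1 population gave 1412 to 1520 and 762 to 1189 in the same order, the lowest without Prom3, and 0 for each regime comparison. Residuals of same-numbered monogamous and promiscuous populations correlated at 0.129, 0.0707, 0.193 and 0.0238, and those of the 12 pairs of different number between -0.156 and 0.0926. In 6 of 8 populations the highest value was that with their own number. The main fits did not pair the populations by number, because not every same-numbered value was over 0.1. These values do not show that the populations were unpaired. With the number as a replicate block, 0 probe sets passed for the females' or the males' regime, and the difference in Yp2 was -0.107 (adjusted p = 0.669). The correlation of Yp2 with Yp3 no longer passed once the regime means were subtracted (r = 0.851, adjusted exact permutation p = 0.188). Each yolk gene had 1 probe set, so the alternative of using every probe set gave no other value. Except where a value is given here, the cause of a change was not tested.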
